A study of Mus musculus with 6 samples.

Results

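Heat shock protein genes were followed in macrophages grown from mouse bone marrow, as a set of 10 genes chosen by name from 20018 genes with a named probe on the arrays: the small heat shock proteins Hspb1, Hspb8 and Cryab and the large ones Hspa1a, Hspa1b, Hspa8, Hsph1, Dnajb1, Hsp90aa1 and Hspd1. Cells of 3 mice lacking the transcription factor Bach1 (Bach1 KO, called KO 947, 948 and 949 after their labels) were compared with cells of 3 wild-type mice (WT 1, 2 and 3), all C57BL/6 and 11 weeks old, with 2 males and 1 female per genotype, where KO 949 and WT 3 were labelled female. Marrow of both genotypes was cultured for 5 days in 10% fetal bovine serum and the growth factor GM-CSF at 10 ng/mL, no heat treatment of the cells is named in the labels, and each mouse gave 1 one-colour Agilent array. The labels do not say how the Bach1 allele was made. Of the 10 genes, 9 had 13 probes matched by transcript accession, all 13 passed the filter on dim probes, and Hspa1b was matched to none and is not analysed here.

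Heat shock proteins are molecular chaperones. Small heat shock proteins hold unfolding proteins in solution without using ATP and are most abundant in muscle, lens and other structural cells, whereas the Hsp70, Hsp90 and Hsp60 machines refold proteins in cycles of ATP binding and hydrolysis, helped by J-domain proteins and nucleotide exchange factors. Many of these genes are switched on by heat shock factor 1, which binds inverted repeats of GAA in their promoters. Bach1 is a heme-binding repressor of Hmox1, the stress-induced gene of heme oxygenase 1.

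Promoter sequence is shown for Hspb1, the gene with the largest difference between genotypes, and for the neighbouring pair Hspa1a and Hspa1b. Promoter bases lie before the transcript, so they do not show what a probe can tell apart. The windows hold the 250 bases before the transcription start, from RefSeq (GRCm38.p6), and capitals mark the letters GAANNTTC, a pair of facing heat shock element units.
Hspb1: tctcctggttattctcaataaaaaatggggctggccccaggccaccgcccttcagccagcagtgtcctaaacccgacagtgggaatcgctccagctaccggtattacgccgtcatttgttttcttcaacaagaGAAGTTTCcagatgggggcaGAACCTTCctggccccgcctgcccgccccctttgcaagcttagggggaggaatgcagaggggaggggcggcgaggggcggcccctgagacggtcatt
Hspa1a: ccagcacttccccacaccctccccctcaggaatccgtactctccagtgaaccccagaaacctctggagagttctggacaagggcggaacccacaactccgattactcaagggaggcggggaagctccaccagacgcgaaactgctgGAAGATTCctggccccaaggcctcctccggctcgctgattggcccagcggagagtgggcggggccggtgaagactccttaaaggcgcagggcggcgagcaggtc
Hspa1b: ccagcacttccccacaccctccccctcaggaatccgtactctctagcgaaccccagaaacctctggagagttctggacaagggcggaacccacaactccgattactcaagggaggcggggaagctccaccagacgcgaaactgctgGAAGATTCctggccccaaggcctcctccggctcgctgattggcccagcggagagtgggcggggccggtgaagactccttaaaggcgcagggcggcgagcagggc
The Hspb1 window lies at chr5:135887669-135887918 on the plus strand, that of Hspa1a at chr17:34972157-34972406 and that of Hspa1b at chr17:34959239-34959488, both on the minus strand. Hspb1 had 2 such pairs, whose first bases lay 117 and 97 bases before the start. Hspa1a and Hspa1b each had 1, beginning 104 bases before the start, and their windows were identical at 247 of 250 bases. The letters GAANNTTC stood in 6.69% of all 32851 promoter windows of this length, and either GAANNTTC or the reverse arrangement TTCNNGAA, each its own reverse complement, in 12.8%. Windows were matched for 7 of the 10 genes, with 10 starts in all, and 1 of these arrangements or both stood in those of 5 genes, Hspb1, Hspa1a, Hspa1b, Hsph1 and Hspd1. In 1 of the 2 Hspd1 windows 3 matches overlapped. The core of the antioxidant response element, TGACNNNGC on either strand, was found in 10.2% of all windows. It stood in the windows of Hsph1 and in 1 of those of Dnajb1.

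Each signal is the log2 processed signal after subtraction of its array's log2 75th percentile. A difference is KO minus WT in these log2 units. Each gene was tested with limma across 15736 genes, with Benjamini-Hochberg adjustment over all of them and a threshold of 0.05. Signals of different probes were not set against each other. Spots well above background made up 62.5% to 65.1% of spots on the KO arrays and 70.3% to 73.2% on the WT arrays, and no spot was saturated. One slide carried KO 947 and all WT arrays, and the other carried KO 948 and KO 949, so that with slide as a block KO 947 alone is set against the WT arrays. The Bach1 probe read 1.45, 2.00 and 2.23 on KO 947, 948 and 949, against 2.21, 2.48 and 2.59 on WT 1, 2 and 3. These values overlapped and did not differ past the threshold (-0.54, adjusted p = 0.262, limma), and no source used here says whether the probe lies within the deletion. Hmox1 averaged 7.44 ± 0.10 on KO arrays and 5.30 ± 0.46 on WT arrays (SD, n = 3 each; adjusted p = 0.0114, and 0.0739 with slide as a block). The macrophage markers were present on all arrays, with 9 of 10 tested, none past the threshold by limma or at an unadjusted p under 0.05, and a summed signal, in multiples of the 75th percentile, of 541 to 581 on KO arrays and 487 to 614 on WT arrays. Of these 9, Csf1r, the receptor of macrophage colony-stimulating factor, separated the genotypes downward (6.59 to 6.70 on KO arrays and 6.76 to 7.01 on WT arrays). The integrin gene Itgam, the macrophage surface receptor gene Adgre1 and the lysozyme gene Lyz2 separated them upward, by 0.25, 0.21 and 0.32. Over all genes 3.41% passed the threshold, 20.4% had an unadjusted p under 0.05 and 26.9% separated the genotypes.

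The small heat shock genes had lower mean signals in KO cultures, and the large ones differed by smaller amounts. The log2 differences of Hspb1, Hspb8 and Cryab were -3.10, -1.51 and -1.40, with a median of -1.51 that is the value of the dim Hspb8, whereas those of the 6 large genes tested ran from -0.79 to 0.40 with a median of 0.27, beside a median of -0.01 over all genes. A difference of more than 1 in either direction was seen in 3 of 3 small genes, 0 of 6 large genes and 7.6% of all genes. A fall of more than 1 was seen in the same 3 small genes and in 5.94% of all genes. The genes were chosen with earlier results of these data known, so these counts are not independent evidence about small heat shock genes. Differences of the 6 other small heat shock genes tested ran from -1.01 to 0.14, with a median of -0.41. Of the 9 genes Cryab alone passed the test, while 537 of all genes passed (3.41%; 2.27% lower and 1.14% higher in KO). The arrays of the genotypes did not overlap in 6 of the 9 genes, with Hspb1, Cryab and Hspa1a lower and Dnajb1, Hsp90aa1 and Hspd1 higher in KO, beside 26.9% of all genes. Scaling arrays to their median moved the median difference of all genes to 0.21. That scaling moves all genes alike, and the difference of Hspa8 was then 0.05 in place of -0.17, on the other side of 0 through this shift.

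**Figure D1:**
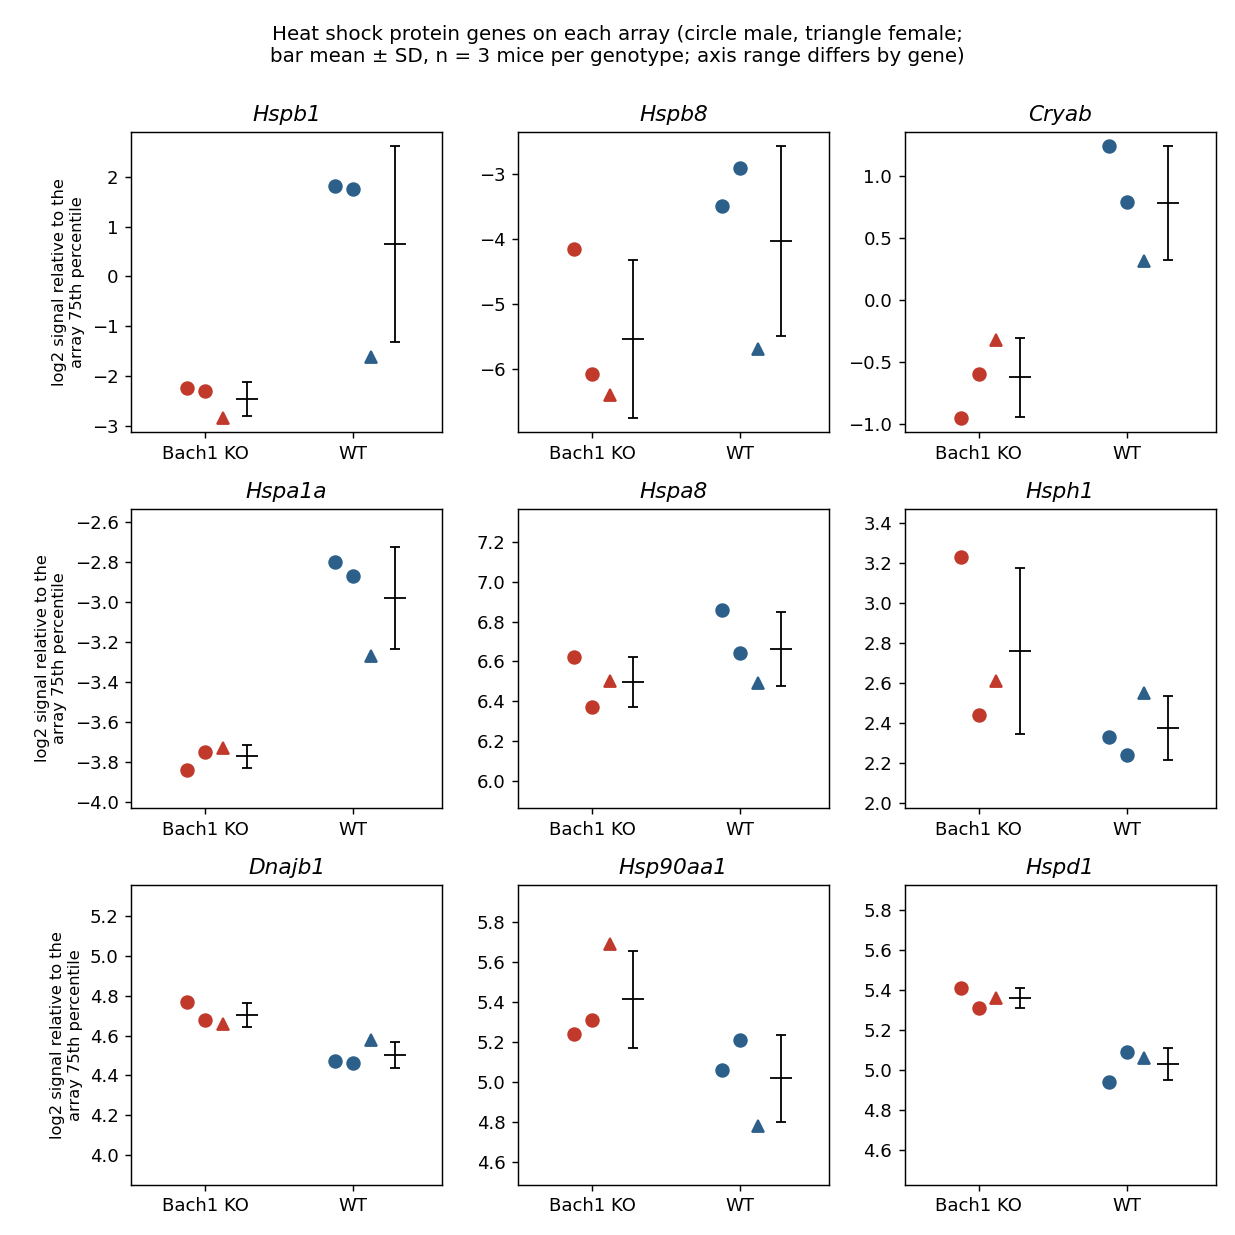
Log2 signal of the 9 measured heat shock protein genes on each array, with Bach1 KO left of WT, circles for males and triangles for females, and bars for the mean ± SD of 3 mice. WT 3 lies close to the KO arrays in Hspb1 and Hspb8, and the genotypes do not overlap in Cryab, Hspa1a, Dnajb1, Hsp90aa1, Hspd1 and Hspb1. The axis range differs between genes.

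Hspb1 encodes the small heat shock protein known as Hsp25 in the mouse, which also binds actin filaments. Its probe read -2.23, -2.30 and -2.84 on KO 947, 948 and 949, against 1.81, 1.76 and -1.62 on WT 1, 2 and 3. The KO arrays lay together, WT 1 and WT 2 lay far above them, and WT 3 lay just above the highest KO array. The mean was -2.45 ± 0.33 in KO and 0.65 ± 1.96 in WT (SD, n = 3 each), and the WT spread was wider than that of 99.8% of genes tested. The difference of -3.10 ± 0.89 (SE, 95% interval -5.23 to -0.98) did not pass limma (adjusted p = 0.120), although 0.477% of genes had a lower one. Without WT 3 it was -4.24 and passed (adjusted p = 0.00202; 1.8% of all genes passed in that fit). With WT 1 or WT 2 left out in its place it was -2.52 or -2.55 and did not pass (adjusted p = 0.315 and 0.252). Among arrays labelled male the difference was -4.05 and passed limma (adjusted p = 0.00301; 1.16% of all genes), and between the single females it was -1.22. Sex and the particular mouse cannot be told apart here, since each genotype had 1 female, and the interaction of genotype and sex did not pass (2.83, adjusted p = 0.338). Blocking on slide gave -2.88 (adjusted p = 0.337).

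Cryab encodes alpha-B-crystallin, a small heat shock protein of lens, heart and skeletal muscle. The brighter of its probes read -0.95, -0.59 and -0.32 on KO 947, 948 and 949, against 1.24, 0.79 and 0.32 on WT 1, 2 and 3. The 3 KO arrays were all under the 3 WT arrays, and WT 3 was again the lowest of the WT arrays. Cryab fell 2.64-fold in KO (difference -1.40 ± 0.28, SE; 95% interval -2.06 to -0.74; adjusted p = 0.0492, limma, n = 3 each). The dimmer probe read -2.39, -2.47 and -2.77 on the KO arrays and -1.25, -1.41 and -1.80 on the WT arrays. It also separated the genotypes, with a difference of -1.06 ± 0.21. With every probe tested on its own, which called 1.04% of 37826 probes, neither Cryab probe passed (adjusted p = 0.0814 and 0.0772). The call also lay close to the threshold among genes: it was lost when slide was a block (-1.73, adjusted p = 0.110; 0.534% of genes passed) and without any 1 array other than WT 3 (differences -1.55 to -1.17, adjusted p = 0.0674 to 0.145), and held without WT 3 (-1.63, adjusted p = 0.0498).

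Hspb8 encodes a small heat shock protein that works with the co-chaperone Bag3 in the removal of damaged proteins by autophagy. Its dim probe read -4.15, -6.08 and -6.40 on KO 947, 948 and 949, against -3.49, -2.91 and -5.69 on WT 1, 2 and 3. Only KO 947, WT 1 and WT 2 were well above background, and the dimmest signals that counted as such were -6.16 to -5.68, depending on the array. The genotypes overlapped, with KO 947 above WT 3. The difference of -1.51 ± 0.86 (95% interval -3.55 to 0.53) did not pass (adjusted p = 0.373), and it was -0.12 with the slide as a block. Bag3 itself averaged 3.99 ± 0.27 in KO and 3.92 ± 0.26 in WT (difference 0.07, adjusted p = 0.890).

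**Figure D2:**
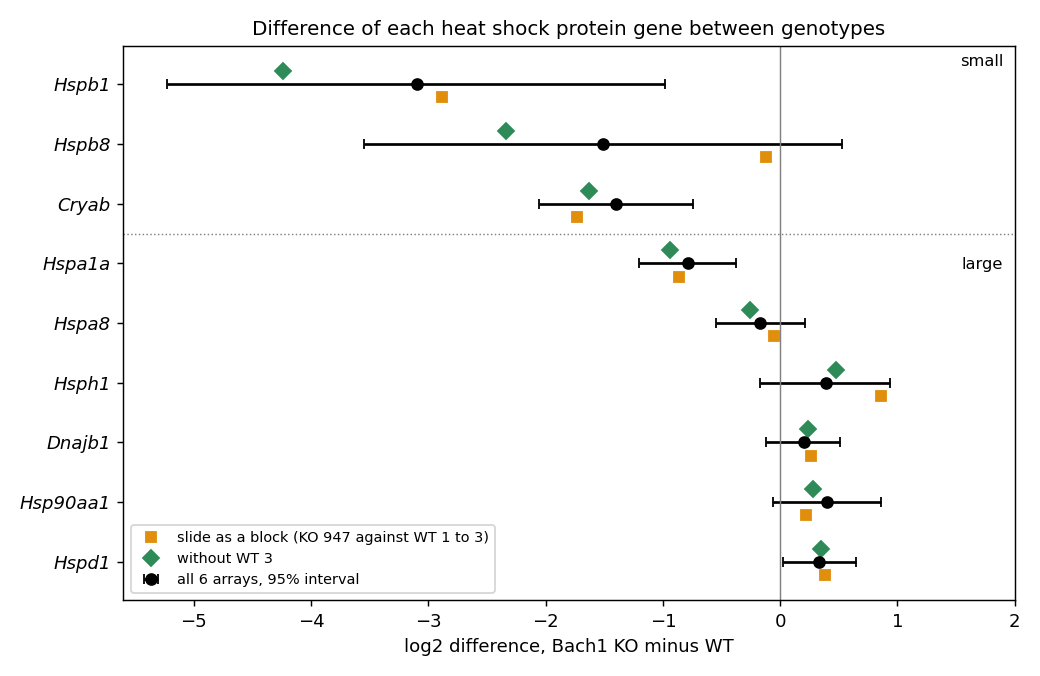
Log2 difference, Bach1 KO minus WT, of each measured heat shock protein gene (black points with 95% intervals from limma on 6 arrays), with the slide as a block (orange squares) and without WT 3 (green diamonds). The small genes lie at -3.10, -1.51 and -1.40 and the large ones between -0.79 and 0.40. Leaving out WT 3 moves Hspb1 to -4.24, and the slide block moves Hspb8 to -0.12.

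Most markers of stromal and smooth muscle cells, like the small heat shock genes, had lower mean signals in KO. Of the stromal list 10 of 12 genes were tested. Of these, Col1a1, Col1a2 and Sparc fell and Fn1 rose (over all genes, 2.27% fell and 1.14% rose). The median difference was -2.83, and 8 of the 10 separated the genotypes downward, as did 13.5% of all genes. With slide as a block Sparc passed (adjusted p = 0.0486) and Col1a1, Col1a2 and Fn1 did not (adjusted p = 0.0848, 0.0534 and 0.153). The summed signal of this list was 56.6 to 71.4 on KO arrays and 17.1 to 49.5 on WT arrays, and without the fibronectin gene Fn1, left out after its values were seen, 0.479 to 1.5 on KO arrays and 5.57 to 25.1 on WT arrays. In that sum WT 3 was the lowest WT array at 5.57, against 25.1 on WT 1 and 23.0 on WT 2. Col1a2, a chain of type I collagen, read -3.58, -3.82 and -3.67 on KO 947, 948 and 949, against 2.58, 2.35 and 0.64 on WT 1, 2 and 3. The order of the WT arrays was not the same in all markers. Thy1 read -1.98, -1.93 and -0.49 on WT 1, 2 and 3, and Cxcl12 and Bgn were lowest on WT 2. Dcn overlapped between genotypes, with KO 948 at -0.03 and WT 2 at -0.21.

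Of the smooth muscle and myofibroblast list 7 of 10 genes were tested, and Cnn1, Myl9 and Actg2 fell, beside 2.27% of all genes. Not tested were the smooth muscle markers Myh11 and Des, well above background on 1 array each, and Lmod1, on 0. Mylk alone had a higher mean in KO, by 0.15, and overlapped between genotypes. With slide as a block Cnn1 passed (adjusted p = 0.0406) and Myl9 and Actg2 did not (adjusted p = 0.0737 and 0.200). Its median difference was -2.28, and its summed signal was 5.19 to 5.83 on KO arrays and 9.45 to 28 on WT arrays, with WT 3 at 9.45. Tagln, which encodes the actin-binding protein transgelin, read -1.58, -0.55 and -0.72 on the KO arrays and 1.95, 1.97 and 0.09 on WT 1, 2 and 3, so that WT 3 again lay nearest to the KO arrays. The defining markers Cxcl12 and Cnn1 were not well above background in any KO culture, and Lum and Lmod1 in none of either genotype. Cxcl12 and Cnn1 therefore passed the filter through WT alone. The part of these cells in the lower Hspb1, Hspb8 and Cryab signals was not tested. In bulk cultures fewer cells of a type and less RNA per cell cannot be told apart.

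**Figure D3:**
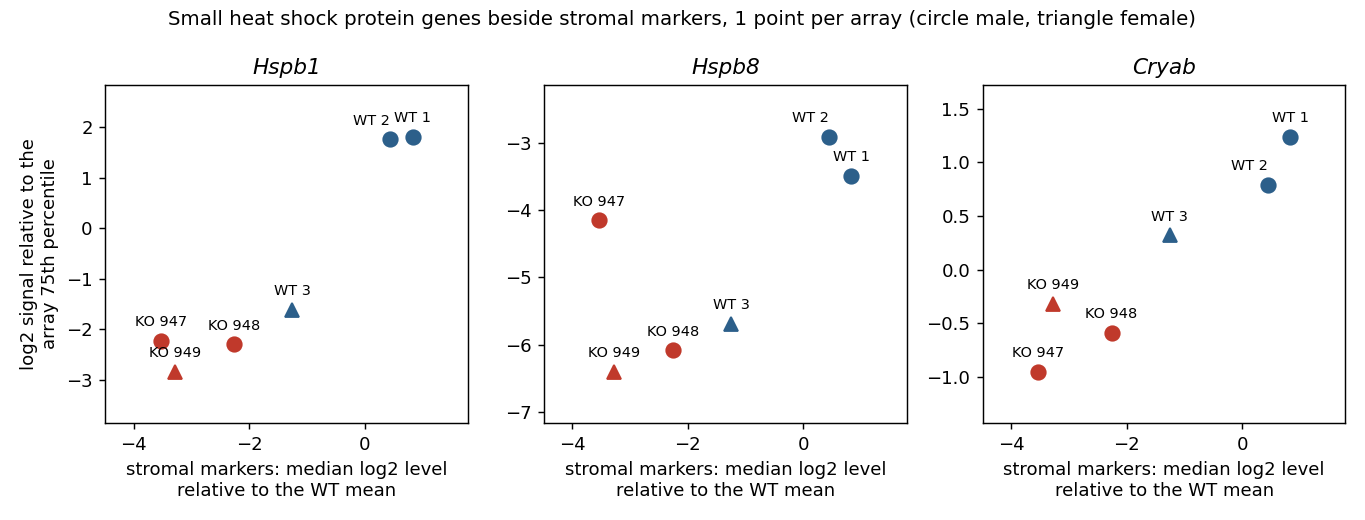
Log2 signal of Hspb1, Hspb8 and Cryab (vertical axes) against the median log2 level of 10 stromal markers relative to their WT means (horizontal axes), 1 labelled point per array, KO in red and WT in blue, circles male and triangles female. WT 3 stands at -1.25 on the stromal axis, between the KO arrays (-3.53 to -2.26) and WT 1 and WT 2 (0.83 and 0.44). KO 947 departs from the other KO arrays in Hspb8.

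Markers of other blood cells were also lower in part, in a fit where 2.27% of all genes fell past the threshold. Of the dendritic cell markers 2 of 10 fell (median -0.36, summed signal 267 to 288 on KO arrays and 316 to 394 on WT arrays), of the granulocyte markers 1 of 9 (median -0.90, 180 to 232 and 266 to 352) and of the markers of eosinophils, mast cells and basophils 3 of 8 (median -3.12, 6.76 to 22.7 and 25.3 to 54.9), with none higher past the threshold. One of these 3, the basophil protease gene Mcpt8, was not well above background in any KO culture and passed the filter through WT alone. With slide as a block, none of the 6 calls in the dendritic, granulocyte and eosinophil, mast cell and basophil lists passed limma. None of 8 lymphocyte markers (median -0.16, 2.77 to 3.40 on KO arrays and 2.93 to 3.76 on WT arrays) and none of 5 erythroid markers (median -0.53, 3.48 to 9.57 and 5.46 to 13.2) passed limma, with 2 and 1 at an unadjusted p under 0.05. Among all genes 3.41% passed and 20.4% had an unadjusted p under 0.05. WT 3 had the lowest sum of the WT arrays in the stromal, smooth muscle, macrophage, dendritic cell, granulocyte and lymphocyte lists. In the eosinophil, mast cell and basophil list (48.3) and the erythroid list (13.2) it was not the lowest.

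The 5 genes whose pattern over the 6 arrays was most like that of Hspb1, by Pearson correlation, were Cd248 (r = 0.995), a surface protein of pericytes and fibroblasts, the skeletal actin gene Acta1 (0.994), Wdhd1 (0.993), the transcription factor gene Foxc2 (0.993) and Tex35 (0.993). Cd248 read -4.26, -3.96 and -4.30 on the KO arrays and -1.57, -1.57 and -3.67 on WT 1, 2 and 3, with the same low WT 3. Foxc2 did not stand well above background in any KO culture. For Cryab they were Hs3st2 (0.997), Cd74 (0.994), Pjvk (0.994), Lmntd1 (0.993) and Trim43b (0.993). Hs3st2, like Foxc2, was above background in WT alone. Cd74, the invariant chain of class II antigen presentation, read 6.54, 6.64 and 6.76 on KO 947, 948 and 949, against 7.50, 7.33 and 7.16 on WT 1, 2 and 3. For the dim Hspb8 probe they were Parp1 (0.988), Pisd-ps3 (0.982), Spata31d1c (0.981), Eef2 (0.979) and Ptges2 (0.978). With 6 arrays and 2 genotypes these correlations describe the arrays only, and the 3 lists shared no gene.

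Among the large heat shock genes the stress-inducible Hsp70 gene Hspa1a was lower in KO. Its probe read -3.84, -3.75 and -3.73 on KO 947, 948 and 949, against -2.80, -2.87 and -3.27 on WT 1, 2 and 3. The KO arrays lay close together below all WT arrays, and WT 3 was the lowest of the WT arrays. The difference of -0.79 ± 0.17 (SE, 95% interval -1.20 to -0.38) missed the threshold (adjusted p = 0.0615, limma, n = 3 each). It passed where only probes well above background on all 6 arrays were kept (adjusted p = 0.0476; 4.09% of 14113 genes passed). That was the only 1 of 19 alternatives on the arrays in which it passed. With 1 array left out the difference was -0.94 to -0.70 and did not pass, and with slide as a block it was -0.86. Hspa1b is a neighbouring, nearly identical copy of Hspa1a. Whether its transcripts add to this probe was not checked, since no probe sequence was at hand.

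Hspa8 encodes the constitutive Hsp70 of the cytosol, known as Hsc70. Its brightest probe read 6.62, 6.37 and 6.50 on KO 947, 948 and 949, against 6.86, 6.64 and 6.49 on WT 1, 2 and 3, and the genotypes overlapped. The differences of its 3 probes were -0.17, -0.24 and -0.06, and the 95% interval of the first was -0.55 to 0.21 (adjusted p = 0.598, limma). Hsph1, an Hsp110 protein that exchanges the nucleotide of Hsp70, read 3.23, 2.44 and 2.61 on the KO arrays and 2.33, 2.24 and 2.55 on the WT arrays. KO 947 stood above the other arrays on this probe and on the second Hsph1 probe, where it read 0.84 and the others -0.57 to -0.19. The difference of 0.39 ± 0.23 did not pass (adjusted p = 0.405, limma). It was 0.15 without KO 947, and 0.86 with slide as a block, where KO 947 alone is set against the WT arrays.

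Dnajb1, Hsp90aa1 and Hspd1 were higher on every KO array than on any WT array, by small amounts that did not pass. Dnajb1, the J-domain partner that stimulates the ATPase of Hsp70, read 4.77, 4.68 and 4.66 on KO 947, 948 and 949, against 4.47, 4.46 and 4.58 on WT 1, 2 and 3 (difference 0.20, 95% interval -0.12 to 0.51, adjusted p = 0.447). Hsp90aa1, the stress-inducible cytosolic Hsp90, read 5.24, 5.31 and 5.69 on the KO arrays and 5.06, 5.21 and 4.78 on the WT arrays (0.40, interval -0.06 to 0.86, adjusted p = 0.306). The females KO 949 and WT 3 were the extremes of both genotypes in Hsp90aa1, and among males the difference was 0.14. Hspd1, the mitochondrial chaperonin Hsp60, read 5.41, 5.31 and 5.36 in KO and 4.94, 5.09 and 5.06 in WT (0.33, interval 0.02 to 0.65, adjusted p = 0.225, limma). In this fit, which has no slide block, the intervals of these 3 genes lay within a 2-fold difference in either direction, that is 1 on the log2 scale. For Hsp90aa1 the difference was 0.62 with array median scaling and 0.92 between the single females.

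Other chaperone genes showed no call. In 7 further lists 68 of 73 genes were tested, and limma called 0 of them, beside 3.41% of all genes. An unadjusted p under 0.05 was seen in 7 of the 68, beside 20.4% of all genes. The median difference of the 68 was 0.09, and 60 of them lay within 0.5 of 0 in either direction. The genotypes did not overlap in 13 of the 68 (5 lower and 8 higher in KO). These are 19.1% of the 68, against 26.9% of all genes. The other small heat shock genes had the lowest median of these lists, -0.41 over 6 genes, with 5 lower in KO. That median rests on Hspb7 (-0.33) and Hspb11 (-0.49), and Hspb7 was well above background on 0 of 3 KO arrays and 3 of 3 WT arrays, so that it passed the filter through WT alone. Cryaa, the alpha-A-crystallin gene, had the largest difference of the 68, -1.01 ± 0.29 (adjusted p = 0.120), with signals of -2.50, -3.58 and -3.24 on KO 947, 948 and 949, against -1.88, -2.16 and -2.27 on WT 1, 2 and 3. Hspb2, the next in its list and well above background on 1 KO array, was at -0.57 (adjusted p = 0.743). Hspb6, a small heat shock protein of smooth and cardiac muscle, differed by -0.07 and Hspb11 by -0.49.

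**Figure D4:**
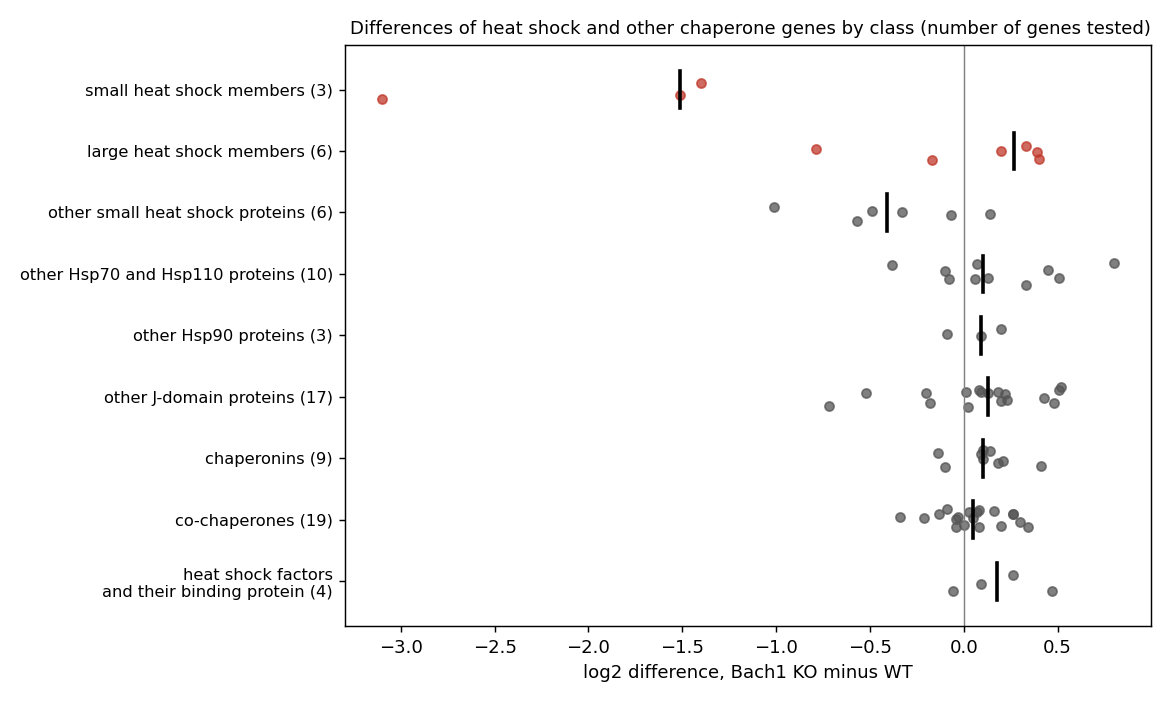
Log2 difference, Bach1 KO minus WT, of every tested gene of the small and large heat shock sets (red) and of 7 further chaperone lists (grey), with black bars at the median of each list and the number of genes tested in parentheses. The medians of the lists other than the small heat shock genes lie between 0.05 and 0.27, apart from -0.41 in the other small heat shock proteins.

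Medians of the remaining lists ran from 0.05 to 0.18. Hspa5, the Hsp70 of the endoplasmic reticulum, differed by 0.06 (adjusted p = 0.883), and Hspa12b (0.80, adjusted p = 0.0991) and Hspa13 (0.51, adjusted p = 0.125) had the largest differences of the other Hsp70 and Hsp110 genes. Hsp90ab1, the constitutive cytosolic Hsp90, differed by -0.09, Trap1 by 0.20 and Hsp90b1 by 0.09. Among 17 J-domain genes Dnaja4 (-0.72, adjusted p = 0.130) and Dnajb4 (0.52, adjusted p = 0.348) stood farthest from 0. Among chaperonins Cct6a was at 0.41 and Cct4 at 0.21, and Hspe1, the mitochondrial partner of Hspd1, at -0.14. Fkbp4 (0.34) and Bag6 (-0.34) were the farthest of 19 co-chaperones, and Stip1, which links Hsp70 to Hsp90, stood at 0.03. Of the heat shock factors Hsf1 read 0.22, 0.72 and 0.68 on the KO arrays and 0.10, -0.03 and 0.75 on the WT arrays (difference 0.26, adjusted p = 0.609), and Hsf2 differed by 0.47 (adjusted p = 0.463).

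The authors' deposited table, which holds 3215 probes that all separate the genotypes, contains 4 probes of these genes. In the authors' deposited table the differences were -1.39 and -1.04 for Cryab, -0.78 for Hspa1a and 0.35 for Hspd1. Since all its probes separate the groups, the presence of a probe there is not independent evidence of a difference.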

How the data were processed

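Spot intensity, in the authors' scanner files, came from Agilent Feature Extraction. The file headers name version 10.7.3.1, whereas the submitters' processing notes name 9.1. The deposited processed signal had local background and a spatial trend removed, per the file headers. A second file holds log2 values that the authors normalized and centred per probe, and it served as an alternative. Flags (other columns, such as well above background) were used as deposited.

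Log2 processed signals of 59305 non-control spots were reduced by the log2 75th percentile of the array, outlier spots left out and spots of a probe averaged. Of 55681 probes 26413 were named through transcript accessions and RefSeq genes (GRCm38.p6, used for names). The array design cites mm9, so no gene coordinates of that table are given. Only probes well above background on 3 or more of 6 arrays were kept, and the brightest probe of a gene was used (15736 genes, 35 with 1 missing value). KO and WT were compared with limma 3.58.1 in R 4.3.3 (lmFit and eBayes, two-sided, no covariate). The fit was tested on simulated data. The genes and lists were chosen with earlier results of these data known. Named were the 10 genes, fixed chaperones, the list genes farthest from 0, and the 5 genes most like each small heat shock gene. Promoters are from RefSeq. The precision is limited by 3 arrays per genotype.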

Additional observations from a re-analysis of the deposited data

How the results depend on the processing

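No paired analysis was possible because the labels give the mice of each genotype different numbers. The median of the small heat shock genes (-1.51) and its distance from that of the large ones (-1.78) moved by less than the pooled SD over arrays (1.06 and 1.02) in the alternatives run, but these SDs are wide and the first is the value of the dim Hspb8. The small median was -2.34 without WT 3, -2.21 without KO 947 and -1.24 without WT 1. With probes above background on all 6 arrays Hspb8 dropped out, and the median of Hspb1 and Cryab, whose differences did not change, was -2.25. The median of the large genes (0.27, SD 0.05) stayed positive, at 0.48 with array median scaling, 0.20 with males only or with normexp, 0.21 with quantile normalization and 0.16 to 0.28 with 1 array left out. The 1 member call became 2 with probes above background on all 6 arrays and 0 with array median scaling, quantile normalization, no filter, sex as a covariate, slide as a block, fixed or random, or only the slide with both genotypes, and 0 to 2 with 1 array left out. With males only the count stayed at 1, but Hspb1 passed (-4.05, adjusted p = 0.00301, limma) and Cryab did not (-1.79, adjusted p = 0.0612). Cryab passed in 6 of 19 alternatives on the arrays (-1.79 to -1.17), Hspb1 in 2, Hspa1a in 1 and Hspd1 in 0. In the authors' deposited table Cryab, Hspa1a and Hspd1 also passed, but all its probes separate the genotypes, so these are not counted. Array median scaling moves all genes alike, and Hspa8 reversed by that shift (0.05). The 0 calls in the wider lists became 1 with array median scaling (Hspa12b, 1.02), 1 with no filter (Hspa12a, 1.56) and 0 to 1 with 1 array left out (Cryaa, -1.31, without KO 947). Hspa12a was well above background on 0 of 6 arrays, so its value compares signals at background. The 537 calls over all genes became 810 with trend and robust eBayes, 182 with males only, 275 with no filter, 24 within the slide with both genotypes, 343 with quantile normalization, 305 with sex as a covariate, 84 and 255 with the slide as a fixed and a random block, and 77 to 900 with 1 array left out. Array median scaling gave 384 higher and 230 lower calls in place of 180 and 357. The cause of these changes was not tested. Normexp was run on median spot signals, which the files hold in place of means. The interaction with sex was added after the data were seen, and 4 of 15701 genes passed it. List medians were not run in the authors' table, which holds Cryab as its only small heat shock gene of the 3. Hspb8 is close to background on 3 of the 6 arrays, which limits its values.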
